A study of Mus musculus with 7 samples.

Results

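The E2F transcription factors E2f1, E2f2 and E2f4, their dimer partner Tfdp1 and the pocket protein genes Rbl1, Rbl2 and Rb1 were followed across 2 stages of red cell development. The 7 genes were chosen by name, and 6 of them had coding exons in the deposited exon table, out of 5194 genes there. Rb1 had no listed exon, so its RNA values and the peaks around it were not analysed here. The study measured RNA by sequencing and the binding of EKLF, an erythroid transcription factor encoded by Klf1, by chromatin immunoprecipitation sequencing (ChIP-seq) in fetal liver of mice at stage E13.5. Erythroblasts were sorted as Ter119+CD71+ cells. Progenitors were sorted as a mix of Ter119-CD71- and Ter119-CD71+ cells. Every group carried Klf1 fused to a hemagglutinin tag, against which the ChIP antibody was directed, and no other genotype was compared. The 7 samples were 1 ChIP library and 1 input library per stage, 2 RNA libraries of erythroblasts and 1 RNA library of progenitors.

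E2F factors bind DNA as dimers with a DP protein such as the product of Tfdp1. E2F1 and E2F2 activate genes of DNA replication, and E2F4 mostly represses them when it is held by the pocket proteins p107 (Rbl1) and p130 (Rbl2). The retinoblastoma protein (Rb1) holds the activating E2Fs in the same way, until cyclin-dependent kinases phosphorylate it. In mice, loss of Rb1 or of E2f4 impairs fetal red cell formation, and E2f2 is a known EKLF target in erythroid cells that are leaving the cell cycle.

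RNA was deposited as 1 column per stage, and peaks as 1 pooled list per stage, so differences between stages could not be checked against replicates and none was tested. The RNA values are a coverage signal per coding exon, not divided by exon length, so levels are compared between stages for the same exon or gene and not between genes. Every listed exon had at least 0.8 in both columns. A value of 0.8 stood for 1721 coverage steps in erythroblasts and 1468 in progenitors. Erythroid markers that were listed included Gata1, Sptb, Epor and the globin genes. The exons of all listed erythroid markers summed to 11693 in erythroblasts and 716 in progenitors. Most of the erythroblast total came from the globin genes, Gata1 and Sptb. Of the 7 listed markers 5 were at least 2-fold higher in erythroblasts. Below that size were Epor, with 70.5 in erythroblasts and 58.2 in progenitors, and Klf1, with 144.9 in erythroblasts and 73.9 in progenitors. No macrophage, hepatocyte, granulocyte or mast cell, B lymphoid, endothelial or stromal marker was listed, which does not show a level of 0, as lower exons are not in the table. One megakaryocyte marker was listed, Gp1ba, with 31.6 in erythroblasts and 9.35 in progenitors. One stem and progenitor marker was listed, Runx1, with 31.1 in erythroblasts and 50.3 in progenitors. The part of these markers in the results was not tested. In these bulk samples, fewer cells of a type and less RNA per cell cannot be told apart.

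Start regions are shown for the 3 genes on which the results turn, E2f1 and E2f2 for their EKLF peaks and Tfdp1 for its fall in RNA. Capitals mark the letters TTTNNCGC, a core of the E2F motif, and CCNCNCCC, a core of the EKLF motif, searched on both strands. Each window is a RefSeq sequence of build GRCm38.p6, written 5′ to 3′ along the gene, from 250 bases before the annotated start to 50 after it. The windows were matched by gene symbol and not by transcript. A start can therefore lie inside the gene and belong to a transcript other than the one whose exons were measured. The peaks are in build mm9, so no window was placed inside a peak.
E2f2, first start (chr4:136172024-136172323, plus strand): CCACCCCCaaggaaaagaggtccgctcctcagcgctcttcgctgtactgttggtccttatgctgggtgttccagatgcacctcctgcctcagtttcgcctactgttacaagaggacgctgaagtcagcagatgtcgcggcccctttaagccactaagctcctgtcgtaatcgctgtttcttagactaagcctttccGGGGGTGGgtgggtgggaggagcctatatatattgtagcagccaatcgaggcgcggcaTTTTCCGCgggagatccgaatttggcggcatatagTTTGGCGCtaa
E2f2, other start (chr4:136180532-136180831, plus strand): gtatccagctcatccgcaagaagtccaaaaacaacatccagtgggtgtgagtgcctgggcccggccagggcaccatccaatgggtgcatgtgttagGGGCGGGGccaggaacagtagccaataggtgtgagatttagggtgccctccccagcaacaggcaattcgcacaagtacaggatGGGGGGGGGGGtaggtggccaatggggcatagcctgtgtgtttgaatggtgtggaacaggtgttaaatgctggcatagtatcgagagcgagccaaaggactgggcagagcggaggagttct
E2f1 (chr2:154569377-154569676, minus strand): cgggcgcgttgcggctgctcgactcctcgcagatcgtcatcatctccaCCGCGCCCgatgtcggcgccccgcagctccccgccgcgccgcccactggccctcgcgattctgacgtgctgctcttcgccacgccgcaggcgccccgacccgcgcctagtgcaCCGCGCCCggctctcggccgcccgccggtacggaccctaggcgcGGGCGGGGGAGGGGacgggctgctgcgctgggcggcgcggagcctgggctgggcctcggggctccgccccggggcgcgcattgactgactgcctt
Tfdp1 (chr8:13338501-13338800, plus strand): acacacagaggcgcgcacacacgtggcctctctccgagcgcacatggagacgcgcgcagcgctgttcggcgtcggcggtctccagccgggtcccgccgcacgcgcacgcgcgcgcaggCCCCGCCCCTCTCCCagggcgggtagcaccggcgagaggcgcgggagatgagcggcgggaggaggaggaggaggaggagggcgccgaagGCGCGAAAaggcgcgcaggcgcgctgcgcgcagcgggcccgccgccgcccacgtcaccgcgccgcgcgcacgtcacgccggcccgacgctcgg

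The table of start regions held 7 windows for 5 of the genes, E2f1, E2f2, Tfdp1, Rbl1 and Rbl2. The E2F letters stood in 4 of these windows, those of Rbl1, the first start of E2f2 and both overlapping windows of Tfdp1, against 5.17% of all 32851 windows of the same length. In E2f2 they began 5 and 40 bases after the start, in Rbl1 18 and 8 bases before it. The EKLF letters stood in 6 of the 7 windows, all but that of Rbl1, against 49.5% of all windows. In the other E2f2 window 4 of the 5 matches overlap in 1 run of G. Its start lies 8508 bases beyond the first one. The GATA letters AGATAA were in none of the 7 windows (11.2% of all), and TTTGAA, a core of the cell cycle homology region, was in those of Rbl2 and the other E2f2 start (17.9% of all). The windows of E2f1 and Tfdp1 were 77.3 and 78.0% G and C (80.7% in the other Tfdp1 window), against a median of 52.7% over all windows. Those of E2f2 held 54.7 and 56.7%, that of Rbl1 64% and that of Rbl2 50.7%. These matches describe the reference sequence and do not show that a factor binds there. The E2f1 window and that of the other E2f2 start were not shown to be promoters of the measured transcripts.

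The first comparison asked how RNA of each gene differed between erythroblasts and progenitors. Tfdp1, the DP partner shared by the E2Fs, fell by more than 2-fold, and no other listed gene of the group passed that size. Its exons summed to 50.8 in erythroblasts and 118.7 in progenitors, a difference of -1.21 on the scale log2((erythroblasts + 1) / (progenitors + 1)), which is used throughout and understates changes of low values. E2f1 and E2f4 had smaller sums in erythroblasts, E2f2 and Rbl1 larger ones. Here rose and fell mean a difference of 2-fold or more. By this rule 0 of 6 rose, 1 fell and 5 did neither. Over all 5194 genes 15.3% rose and 13.2% fell. The median difference of the 6 genes was -0.44, beside 0.03 over all genes. That median includes E2f4, whose difference was -0.60 by the sum and 0.22 by the median of its exon differences. With 0.22 for E2f4 the median of the 6 genes would be less negative.

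**Figure D1:**
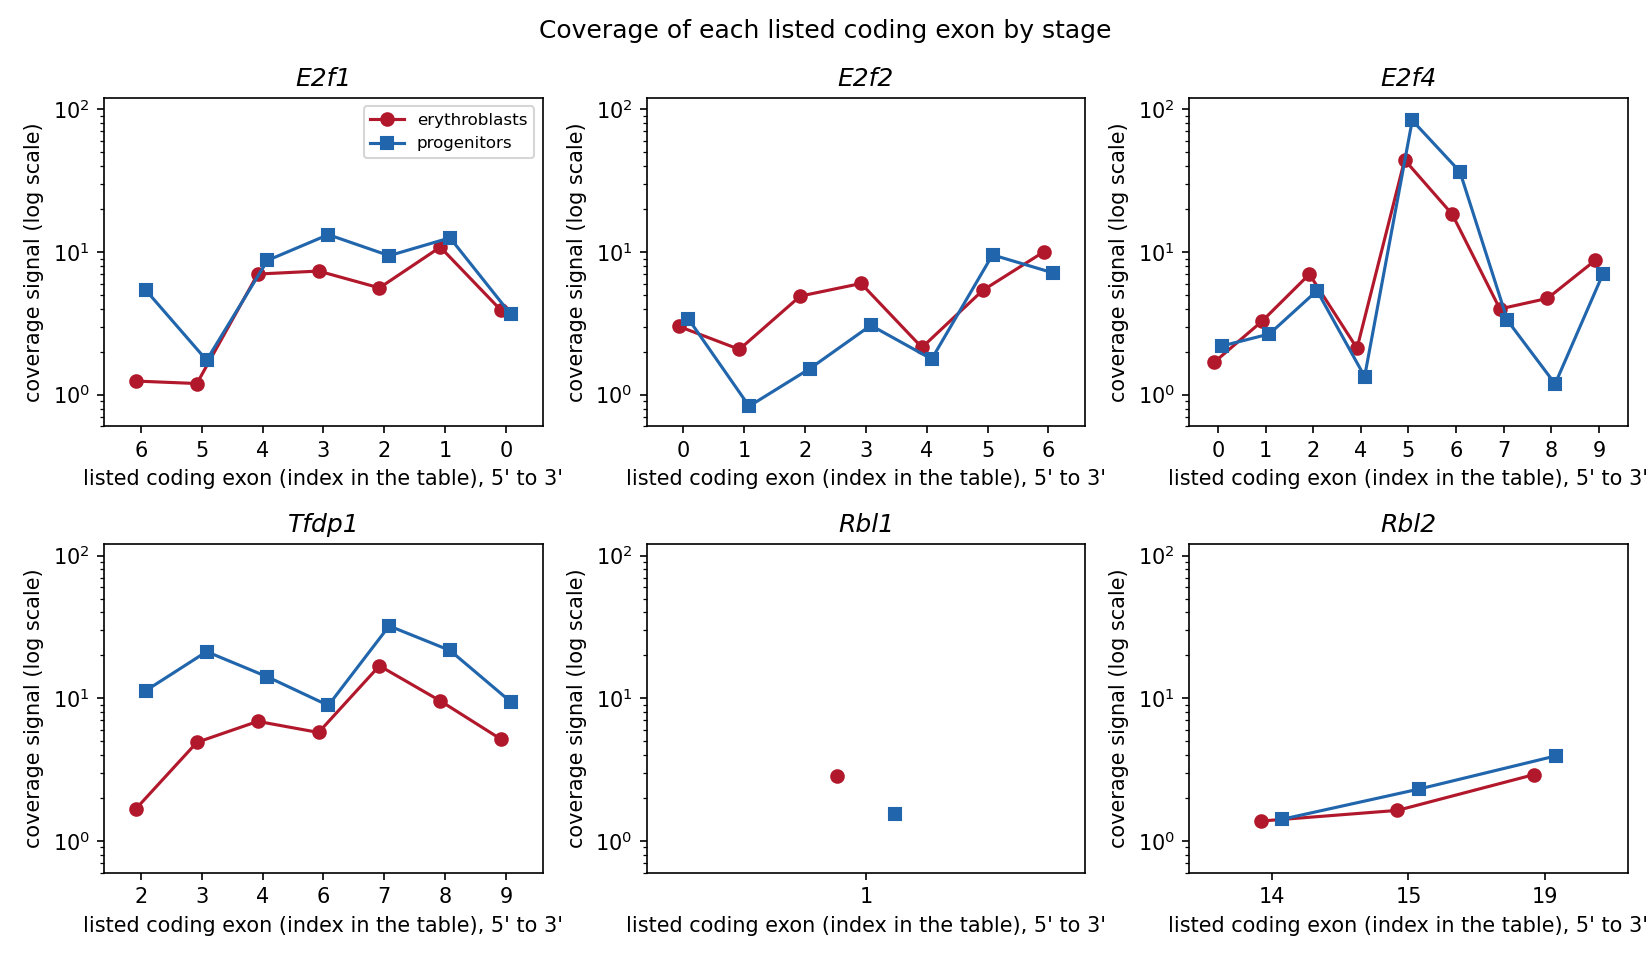
Coverage signal (log scale) of each listed coding exon of 6 genes, in 5′ to 3′ order, with erythroblasts as red circles and progenitors as blue squares, 1 deposited value per stage. All 7 listed Tfdp1 exons were lower in erythroblasts, while exons 1 to 3 of E2f2 were higher and exons 5 and 6 of E2f4 were lower.

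All 7 listed exons of Tfdp1 were lower in erythroblasts. Exons are named by the index in the table, which counts from 0 at the lowest coordinate. The 5′-most listed exon, exon 2, had 1.68 in erythroblasts and 11.3 in progenitors, a difference of -2.20. Exon 3 had 4.91 in erythroblasts and 21.2 in progenitors (-1.91), and exon 4 had 6.88 in erythroblasts and 14.1 in progenitors (-0.94). Exons 2 and 3 differed more than the other 5 listed exons. Exon 6 had 5.76 in erythroblasts and 8.90 in progenitors (-0.55), and exon 7 had 16.9 in erythroblasts and 32.1 in progenitors (-0.89). Exon 8 had 9.58 in erythroblasts and 21.6 in progenitors (-1.10), and exon 9 had 5.15 in erythroblasts and 9.42 in progenitors (-0.76). The SD of the exon differences was 0.62, and exons of 1 gene are not replicates. By the median of the exon differences, -0.94, Tfdp1 would stay under 2-fold. Its summed difference lay at percentile 9.45 of all genes. By that measure, among 1676 other genes with at least 5 listed exons and at least 5 in the higher stage, the closest were Polr1a (-1.21), Calr (-1.21) and Drap1 (-1.203). With 1 value per stage this likeness is 1 number and says nothing more.

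E2f1, an activating E2F, had a sum of 37.1 in erythroblasts and 54.7 in progenitors, a difference of -0.55 that stayed under 2-fold. Of its 7 exons 6 were lower in erythroblasts. The 5′-most, exon 6, had 1.25 in erythroblasts and 5.41 in progenitors, a difference of -1.51. Exon 5 had 1.197 in erythroblasts and 1.74 in progenitors (-0.32), and exon 4 had 7.004 in erythroblasts and 8.73 in progenitors (-0.28). Thus exon 6 stood apart from its neighbours. In the middle of the gene, exon 3 had 7.35 in erythroblasts and 13.2 in progenitors (-0.77), and exon 2 had 5.603 in erythroblasts and 9.42 in progenitors (-0.66). Toward the 3′ end the stages were close, with 10.8 in erythroblasts and 12.6 in progenitors at exon 1 (-0.20), and 3.90 in erythroblasts and 3.65 in progenitors at exon 0 (0.07).

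The 5′-most listed exon thus had the lowest difference in both E2f1 and Tfdp1. The difference of the 3′-most listed exon minus that of the 5′-most was 1.59 in E2f1 and 1.44 in Tfdp1, at percentiles 97.3 and 95.8 of the 1677 genes with at least 5 listed exons. In E2f2 and E2f4 it was 0.57 and 0.54, and in Rbl2, with 3 listed exons, it was -0.31. Over the 1677 genes the median was -0.03 and 48.1% were above 0, so no such slope was seen over the table as a whole. Each end rests on 1 exon of 1 value per stage. This contrast was not planned and builds on the low 5′-most exons of E2f1 and Tfdp1. The high percentiles of these genes are therefore no separate evidence.

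E2f2, the other activating E2F, was higher in erythroblasts in 5 of its 7 exons and lower in exons 0 and 5. Its sum was 33.5 in erythroblasts and 27.3 in progenitors, a difference of 0.29 at percentile 61.6 of all genes. Exon 0, the first in the table, had 3.02 in erythroblasts and 3.41 in progenitors (-0.13). Exon 1 had 2.08 in erythroblasts and 0.830 in progenitors (0.75), exon 2 had 4.91 in erythroblasts and 1.52 in progenitors (1.23), and exon 3 had 6.02 in erythroblasts and 3.06 in progenitors (0.79). These 3 exons summed to 13.0 in erythroblasts and 5.42 in progenitors, a difference of 1.13, and were picked after their values were seen. Exon 4 had 2.14 in erythroblasts and 1.78 in progenitors (0.18), and exon 6 had 10.005 in erythroblasts and 7.13 in progenitors (0.44). Exon 5 went the other way, with 5.39 in erythroblasts and 9.55 in progenitors (-0.72). It held 16.1% of the gene's signal in erythroblasts and 35.0% in progenitors, and without it the gene's difference was 0.64. The lowest of these values, in progenitor exon 1, stood for 1523 coverage steps, or 29.9 reads of 51 bases if a step is 1 base.

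E2f4, the repressor-type E2F, had 2 exons that went against most of the others. Its sum was 94.1 in erythroblasts and 143.2 in progenitors, a difference of -0.60, but 6 of its 9 listed exons were higher in erythroblasts. Exon 5 had 44.2 in erythroblasts and 83.6 in progenitors (-0.90), and exon 6 had 18.4 in erythroblasts and 36.6 in progenitors (-0.96). Together these exons held 66.5% of the gene's signal in erythroblasts and 83.9% in progenitors. The other 7 exons summed to 31.5 in erythroblasts and 23.0 in progenitors, a difference of 0.44, and the median of the exon differences was 0.22. The direction of E2f4 therefore depends on how its exons are combined. Among genes with at least 5 listed exons, the sum and the exon median had opposite signs in 9.06%. The highest difference was that of exon 8, with 4.73 in erythroblasts and 1.19 in progenitors (1.39). Exon 0 had 1.69 in erythroblasts and 2.19 in progenitors (-0.25), and the remaining 5 exons had differences between 0.21 and 0.41.

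**Figure D2:**
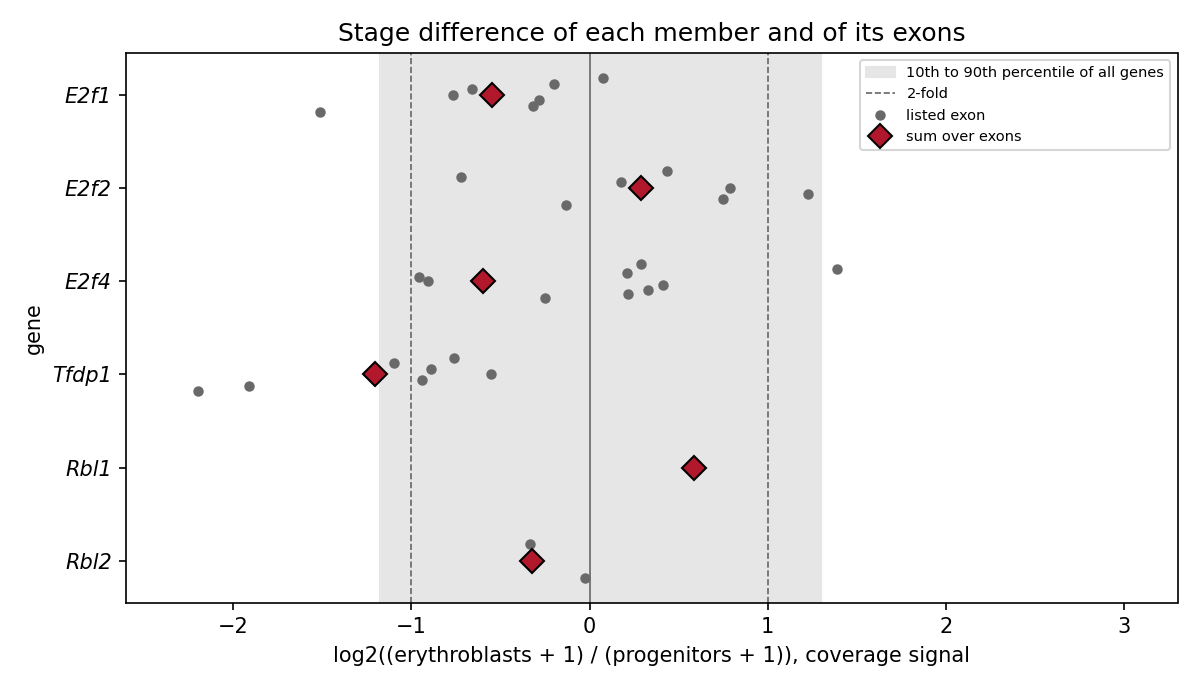
Differences on the log2((erythroblasts + 1) / (progenitors + 1)) scale for 6 genes, with each listed exon as a grey point, the sum over exons as a red diamond, 2-fold as dashed lines and the central range of all genes in grey. The sum of Tfdp1 (-1.21) lies beyond 2-fold, and the exons of E2f4 lie on both sides of 0.

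The pocket protein genes were covered thinly. Rbl2, which encodes p130, had 3 listed exons, with indexes 14, 15 and 19. Exon 14 had 1.38 in erythroblasts and 1.42 in progenitors, exon 15 had 1.64 in erythroblasts and 2.31 in progenitors, and exon 19 had 2.92 in erythroblasts and 3.95 in progenitors. All 3 were lower in erythroblasts, by -0.03 to -0.34, and the sum differed by -0.32. No listed exon was higher in erythroblasts in 28.5% of all genes, so this is a common pattern in the table. Rbl1, which encodes p107, had 1 listed exon, exon 1, with 2.83 in erythroblasts and 1.55 in progenitors, a difference of 0.59. Both genes stayed under 2-fold, and their unlisted exons were not analysed here.

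The second comparison asked where EKLF peaks lay around these genes in each stage. All 6 genes had an erythroblast peak within 50 kb of their listed exons, and 4 had a progenitor peak, E2f4 and Tfdp1 being those without. Over all genes 88.1% had an erythroblast peak and 70.1% a progenitor peak within that distance, so these counts are near the background. The erythroblast list held 16 peaks in these windows and the progenitor list 5. All 5 progenitor peaks overlapped an erythroblast peak, and 11 of the 16 erythroblast peaks overlapped no progenitor peak. Over the whole lists, 80.9% of progenitor peaks and 30.9% of erythroblast peaks overlapped a peak of the other list. The overlaps near these genes are therefore near the background as well. The 2 lists differ in length, with 19353 peaks in erythroblasts and 7358 in progenitors, and each fold enrichment below is the authors' value and is read within its own list. The median enrichment of a list was 9.31 in erythroblasts and 7.03 in progenitors.

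**Figure D3:**
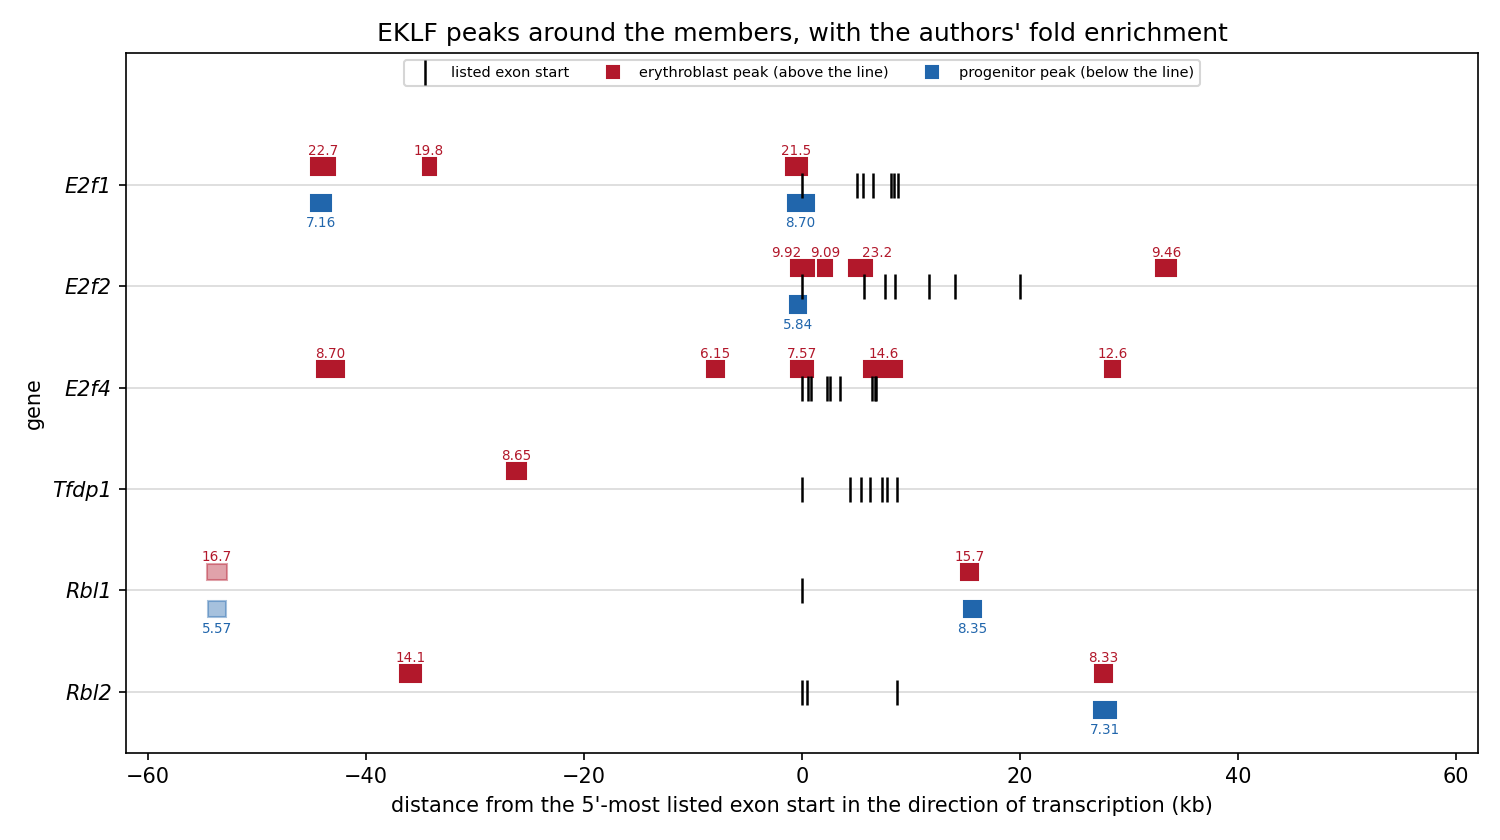
EKLF peaks around 6 genes by distance from the 5′-most listed exon start in the direction of transcription (kb), with erythroblast peaks in red above each line, progenitor peaks in blue below it, the authors' fold enrichment beside each peak and listed exon starts as black ticks. E2f1 and E2f2 have a peak of both lists at the 5′-most exon, E2f4 has erythroblast peaks at both ends of the gene, and the pale Rbl1 peaks lie beyond 50 kb.

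At E2f1 a peak of both lists covered the listed coordinate of the 5′-most exon. That exon had the lowest RNA difference of the gene, and no test connects the difference with the peak. Exon starts in this text are the coordinates listed per exon. For E2f1 and Rbl1, on the minus strand, it was not checked which end of the exon that is. In erythroblasts the peak lay at chr2:154394743-154396707 (build mm9 for all peaks) with an enrichment of 21.5, rank 598 by enrichment. In progenitors it lay at chr2:154394166-154396543 with an enrichment of 8.70, rank 2017. The peaks overlapped by 1801 bases, which is 91.7% of the narrower one. A further shared site lay upstream, at chr2:154438110-154440253 in erythroblasts (enrichment 22.7) and chr2:154438447-154440279 in progenitors (7.16), 42.9 and 43.2 kb from the listed exons. An erythroblast peak with no progenitor counterpart lay at chr2:154428855-154430041 with an enrichment of 19.8. For these upstream peaks the nearest listed exon was one of Pxmp4, so their link to E2f1 rests on distance alone.

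At E2f2 the erythroblast list had 4 peaks and the progenitor list 1. The shared site covered the start of exon 0, at chr4:135727646-135729817 in erythroblasts (enrichment 9.92) and chr4:135727603-135729089 in progenitors (5.84). By enrichment it ranked 8178 in erythroblasts and 5295 of 7358 in progenitors. The progenitor peak was below the median of its list and outside its higher-ranked 50% by −log10 p. Within the gene, erythroblasts alone had a peak at chr4:135730154-135731426 with an enrichment of 9.09, below the median of its list (rank 9977). It covered no listed exon start and lay 1.46 kb beyond that of exon 0. The strongest E2f2 peak, at chr4:135733009-135735104, had an enrichment of 23.2 and ranked 413 of the erythroblast list by enrichment. It covered the start of exon 1, so it is not purely intronic. Its closest progenitor peak lay 3920 bases away. Exon 1 was higher in erythroblasts (0.75), and no test connects the peak with that difference. The last erythroblast peak lay 12.5 kb beyond the listed exons with an enrichment of 9.46.

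At E2f4 the 5 peaks were all in the erythroblast list. One, at chr8:107820681-107822690, covered the starts of exons 0, 1 and 2 with an enrichment of 7.57, below the median of its list. The other, at chr8:107827369-107830868, covered the starts of exons 7, 8 and 9 at the 3′ end with an enrichment of 14.6 and was 3500 bases wide. Neither covered the start of exon 5 or 6. Exon 0, under the first of these peaks, was also lower in erythroblasts. A connection between these peaks and the exon differences was not tested. The remaining peaks lay 7.14, 21.0 and 42.03 kb from the listed exons with enrichments of 6.15, 12.6 and 8.70, and for the second of these the nearest listed exon was one of Tmem208. The nearest progenitor peak to any of the 5 was 81250 bases away. An erythroblast peak without a progenitor peak within 50 kb was found for 20.5% of all genes.

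Tfdp1, the gene that fell, had a single erythroblast peak within 50 kb and no progenitor peak. It lay at chr8:13337991-13339745, 25.3 kb upstream of the first listed exon, with an enrichment of 8.65 (rank 11515 of 19353). Since the first listed exon has index 2, exons 0 and 1 lie between that exon and the gene's start and were not located here. At Rbl1 a shared site lay 14.6 kb beyond the only listed exon in erythroblasts (enrichment 15.7) and 14.9 kb in progenitors (8.35). A shared site on the other side lay just outside the distance rule, at 52.8 kb in both lists, with an enrichment of 16.7 in erythroblasts and 5.57 in progenitors. At Rbl2 a shared site lay 18.1 kb beyond the listed exons in both lists (8.33 in erythroblasts, 7.31 in progenitors), and an erythroblast peak 34.9 kb upstream (14.1) was nearer to a listed exon of Chd9. The peaks furthest inside the distance rule were those 43.2 kb from E2f1 in progenitors and 42.9 kb from E2f1 in erythroblasts.

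Closer to the genes the counts were smaller. Within 20 kb, 5 of 6 genes had an erythroblast peak and 4 of 6 a progenitor peak, beside 72.4 and 51.8% of all genes. Within 5 kb, 3 of 6 genes had an erythroblast peak (E2f1, E2f2 and E2f4), beside 46.5% of all genes. In progenitors it was 2 of 6 (E2f1 and E2f2), beside 30.9% of all genes. Between the first and last listed exon starts the counts were the same, 3 and 2 of 6, beside 24.9 and 15.8% of all genes. These shares are not like for like, as the stretch depends on how many exons were listed. E2f1, E2f2 and E2f4 had 7, 7 and 9 listed exons, beside a median of 3 over all genes, and for Rbl1 the stretch was 0 bases. For Tfdp1, Rbl1 and Rbl2 the 5′ exons were not listed, so peaks at their starts could not be counted by this distance.

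Genes that work with E2F and pocket proteins were then described from 7 lists, beside the 15.3% of all genes that rose and the 13.2% that fell. Among other E2F and DP genes, E2f8, a repressing E2F without a DP partner, rose to 156 in erythroblasts, against 68.9 in progenitors (1.17), with all 8 listed exons higher. Tfdp2, the second DP gene, rose to 6.02 in erythroblasts, against 2.13 in progenitors (1.16), while Tfdp1 fell. That rise of Tfdp2 rests on 2 exons. E2f7 had 13.6 in erythroblasts and 8.51 in progenitors, and E2f3 had 1.07 in erythroblasts and 1.06 in progenitors on 1 exon. In all, 2 of 4 listed genes rose and none fell, but by the median of the exon differences 0 of 4 would pass.

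Among cyclins and kinases that phosphorylate pocket proteins 3 of 7 rose and 2 fell. The cyclin gene Ccne1 (2.46) and the D-type cyclin gene Ccnd3 (1.70) rose, the other D-type cyclin gene Ccnd2 fell (-3.08), and the cyclin E partner Cdk2 fell to 15.3 in erythroblasts, against 43.4 in progenitors (-1.45). Cdk4, the D-cyclin kinase, had a difference of -0.89, and Ccna2 one of 0.28. All 3 listed CDK inhibitor genes rose, Cdkn1b (2.83), Cdkn2c (1.71) and Cdkn2d (1.55), on 1 or 2 exons each. Of 5 listed genes of the MuvB complex, which joins E2F4 and p130 on silenced cell cycle genes, and of its MYB and FOXM1 partners, Lin37 rose (1.11, on 3 exons), while Rbbp4 (-0.29) and Mybl2 (-0.28) did neither. Of 8 listed corepressors that pocket proteins bind, Sin3a fell to 32.3 in erythroblasts, against 78.1 in progenitors (-1.25), and the histone-binding protein gene Rbbp7 fell (-1.05), while the DNA methyltransferase gene Dnmt1 (-0.23) and the remodeller gene Smarca4 (-0.46) did neither. By the exon medians 0 of these 5 MuvB genes and partners and 0 of these 8 corepressors would pass in those directions. Of the kinases and cyclins 1 in place of 2 would have fallen, as Ccnd2 had an exon median of -2.84 but Cdk2 one of -0.44.

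**Figure D4:**
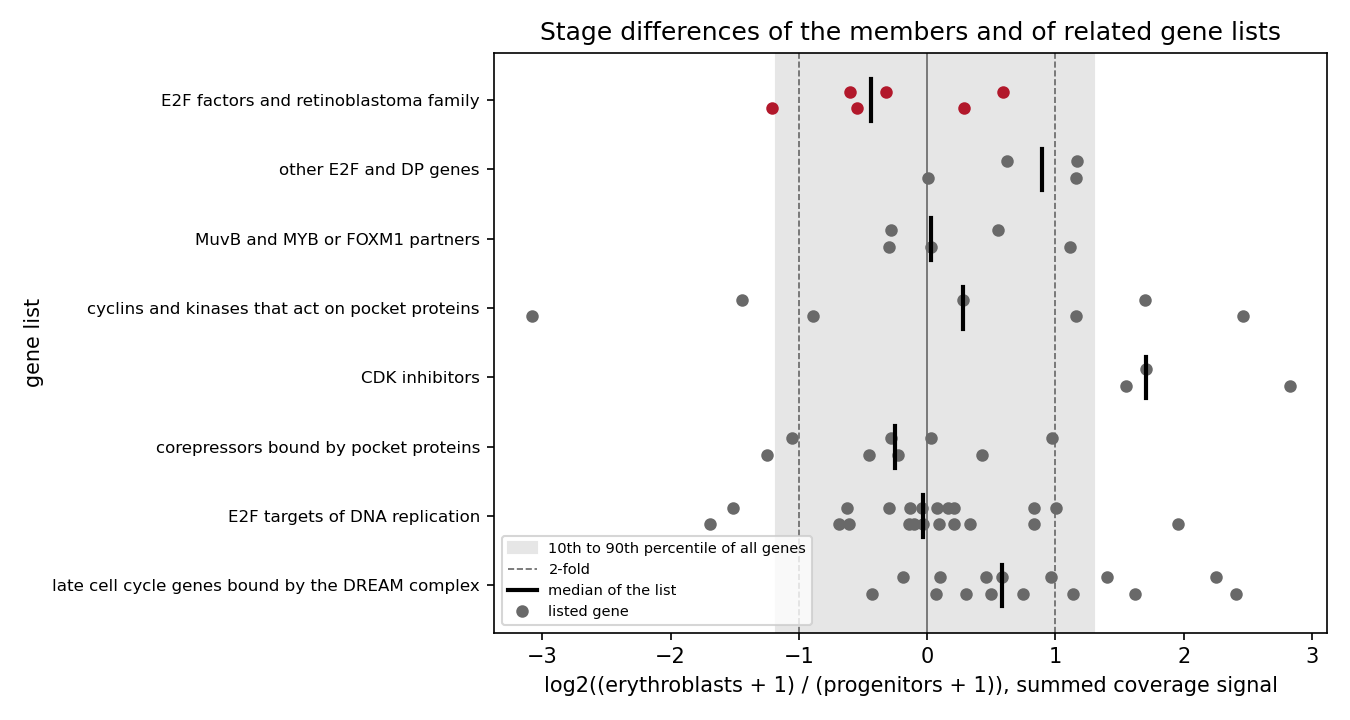
Differences on the log2((erythroblasts + 1) / (progenitors + 1)) scale of each listed gene by list, with the 6 E2F and pocket protein genes in red on top, the median of each list as a black bar and the central range of all genes in grey. All 3 CDK inhibitor genes lie above 2-fold, and the replication targets centre on -0.03.

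Known E2F targets of DNA replication mostly stayed under 2-fold, as 17 of 21 listed genes did. Cdc6, which loads the replicative helicase, rose (1.95), and Rrm1, a subunit of ribonucleotide reductase, was just past the threshold (1.001). Tyms, the thymidylate synthase gene, fell to 8.71 in erythroblasts, against 30.3 in progenitors (-1.69). The licensing gene Cdt1 fell to 42.8 in erythroblasts, against 124 in progenitors (-1.51), with all 10 exons lower. The median of the list was -0.03. Late cell cycle genes that the DREAM complex of E2F4 and p130 is known to repress had a median of 0.58, with 5 of 15 risen and none fallen. Among these, the spindle genes Tpx2 (2.41) and Nusap1 (2.25), Top2a (1.62), which encodes topoisomerase II, and the cyclin gene Ccnb2 (1.40) rose, while Aurka (0.58) and Cdc20 (0.46) did neither.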

How the data were processed

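Each population came from 3 or more independent sorts, per the labels. RNA was read as paired 51-base reads, and input chromatin served as background for peaks. Coordinates are those of mm9, the build in the submitters' processing notes. The authors deposited exon values under the name RPKM, which behave as read coverage signal summed per exon and scaled to a total per column. Tested on the file, every value was within 0.01 of a whole multiple of 1 step per column, with 2151 steps per unit in erythroblasts and 1835 in progenitors, and the paired multiples of an exon shared no divisor in 61.3% of exons, as multiples with no exon length divided out would. The sources used here do not say whether the erythroblast column pools both libraries. Aligner, caller and counter were not given in the sources used here. Columns 7 and 8 of the authors' peak lists were read from their values as fold enrichment and −log10 p.

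RefSeq accessions were matched to symbols (6772 of 6853 transcripts). Per gene, exons of the transcript with the largest number of listed exons were summed, giving 5194 genes with at least 1 in a column. Differences used a pseudocount of 1. Peaks were shared from 1 bp of overlap. Steps were tested on simulated data. Members and lists were chosen with earlier results of these data known. Named genes were all members, the 3 genes nearest to the member with the largest difference, and per list up to 4 past 2-fold and 2 of the best covered others. Python 3.11.15, pandas 2.3.3, numpy 2.4.6 and matplotlib 3.10.9 were used.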

Additional observations from a re-analysis of the deposited data

How the results depend on the processing

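Other pseudocounts, scaling, exon filters, exon summaries and transcripts gave 44 further values for the 6 genes. Of these, 41 kept their direction and their side of 2-fold. Using the exons of all transcripts returned the main value for each of the genes, so those values are no separate check. E2f4 turned to 0.22 by the median of its exon log2 ratios and to 0.44 without its 2 largest exons, an alternative chosen after seeing the data. Those exons are 5 and 6, while 6 of the 9 listed exons of E2f4 were higher in erythroblasts. Why exons 5 and 6 went the other way was not tested. Tfdp1 ranged from -1.38 to -0.94, and by the exon median (-0.94) 0 members passed 2-fold, the cause of which was not tested. E2f1 ranged from -0.61 to -0.32, E2f2 from 0.11 to 0.72, Rbl1 from 0.26 to 0.83 and Rbl2 from -0.37 to -0.03. With a pseudocount of 5, 512 of all genes rose and 411 fell. Without the largest exon it was 500 and 322, and without the 2 largest 337 and 190. Genes left with no exon drop out of these counts, and their share in the change was not tested. Within 5 kb the members had 6 erythroblast and 2 progenitor peaks, at 3 and 2 genes. Within 20 kb they had 10 erythroblast peaks. In the higher-ranked 50% of each list by the authors' −log10 p they had 10 erythroblast and 2 progenitor peaks, the progenitor ones at 1 gene. The 5 shared erythroblast peaks stayed 5 under both other definitions of sharing. Of 112 other counts for the related lists 22 moved by over 1.5 times or to or from 0. Rrm1 was under 2-fold once the columns were scaled to a median of 0. No paired analysis was possible because each stage has 1 column and no column carries a replicate number. Leaving out a replicate was not possible for the same reason. The values of Rbl1 and Rbl2 rest on 1 and 3 listed exons.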

Other observations

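EKLF peaks also lay near the other E2F and DP genes that were listed. At E2f8 a shared site lay just upstream of the 5′-most listed exon, 1.92 kb away in erythroblasts with the authors' enrichment of 24.0 (rank 346 by enrichment), and 1.76 kb away in progenitors with an enrichment of 6.65. At Tfdp2 a shared site lay 45.6 kb from the listed exons, with an enrichment of 11.4 in erythroblasts and 6.73 in progenitors. E2f7 had 1 erythroblast peak, 32.3 kb upstream (13.9), and E2f3 had 2, at 19.96 and 31.9 kb (8.33 and 8.26), with no progenitor peak within 50 kb of either gene.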
